A study of Rattus norvegicus with 180 samples.

Results

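The miRNAs rno-miR-183, rno-miR-96 and rno-miR-182 form 1 genomic cluster, and they were taken by name from the 717 rat miRNAs of an Agilent one-colour array; all 3 members were present. Levels were read in 55 organs of 3 male Sprague-Dawley rats, 10 weeks old, with no treatment named in the labels, whose vessels had been flushed with physiological saline (perfused rats, numbered 4, 5 and 6). Liver, kidney, lung, heart atrium and heart interventricular septum were also taken from 3 such rats that had not been flushed (rats 1, 2 and 3). Each of the 180 arrays held total RNA of 1 organ of 1 rat, and by the titles the same 3 rats gave all 55 organs, so n = 3 arrays per organ. For 8 organs (medulla oblongata, pituitary, the 3 cord levels and 3 limb muscles) a second label gives rat 6 for the array titled rat 5. The sample list of the study follows the titles, as is done here.

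Clustered miRNAs are cut from 1 long primary transcript, and each mature strand guides a silencing complex to messenger RNAs that pair with its seed, bases 2 to 8. The miR-183 cluster is known for its abundance in sensory cells, among them the photoreceptors of the retina, the hair cells of the inner ear and sensory neurons. It is also found in several epithelia. The eyeball was the organ of the set that holds a retina.

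The mature sequences below are shown because the members are close relatives that must be told apart by their bases. They come from RefSeq (assembly GRCr8) and run 5′ to 3′ with the seed in capitals.
rno-miR-183: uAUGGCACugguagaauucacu
rno-miR-96: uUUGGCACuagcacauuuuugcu
rno-miR-182: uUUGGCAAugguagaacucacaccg

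The 3 seeds differ from each other, and 0 other of the 724 mature rat miRNAs in the RefSeq table carried any of them. Counted from the 5′ end, miR-183 and miR-182 had the same base at 18 of 22 positions, including 5 of the 7 seed positions. miR-183 and miR-96 matched at 13 of 22 positions, with 6 of 7 in the seed, and miR-96 and miR-182 at 12 of 23, also with 6 of 7 in the seed.

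In GRCr8 the 3 hairpins lie on the minus strand of chromosome 4, Mir183 at chr4:59756044-59756153, Mir96 at chr4:59755841-59755946 and Mir182 at chr4:59752246-59752307. The cluster spans 3908 bases, with 97 bases between Mir183 and Mir96 and 3533 between Mir96 and Mir182. It is intergenic with respect to protein-coding genes, of which Nrf1 and Ube2h are the nearest on either side. Another hairpin, Mir3553, lies on the plus strand opposite Mir183 (chr4:59756047-59756152), and 22 bases of its mature miRNA are complementary to miR-183.
rno-miR-3553: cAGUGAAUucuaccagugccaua

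The cluster was present in most epithelial and glandular organs, the spinal cord and a peripheral nerve, and was not seen in muscle, most of the brain, vessels or fat. All 3 members were detected on every array in 30 of the 55 organs, and none of them was detected on any array in 20 organs. A miRNA counts as detected on an array where more than 50% of the usable spots of at least 1 of its probe sequences were well above background. Over the 165 arrays of the perfused rats, miR-183 was detected on 98, miR-96 on 102 and miR-182 on 95.

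The 5 remaining organs were the lumbar cord (miR-182 on 2 of 3 arrays), the liver (miR-96 alone), the thymus (miR-96 on 3 arrays and miR-183 on 2), and the cervical lymph node and medulla oblongata, where detection varied between rats. The 20 organs without any member were both heart regions, 4 striated muscles including the interseptum (the name the labels use), aorta, vein, white and brown adipose tissue, spleen, bone marrow, mesenteric lymph node, pancreas, testicle, optic nerve, cerebral cortex, hippocampus, thalamus and cerebellum. These are whole-organ extracts, in which fewer cells that carry a miRNA and less of it per cell cannot be told apart.

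**Figure D1:**
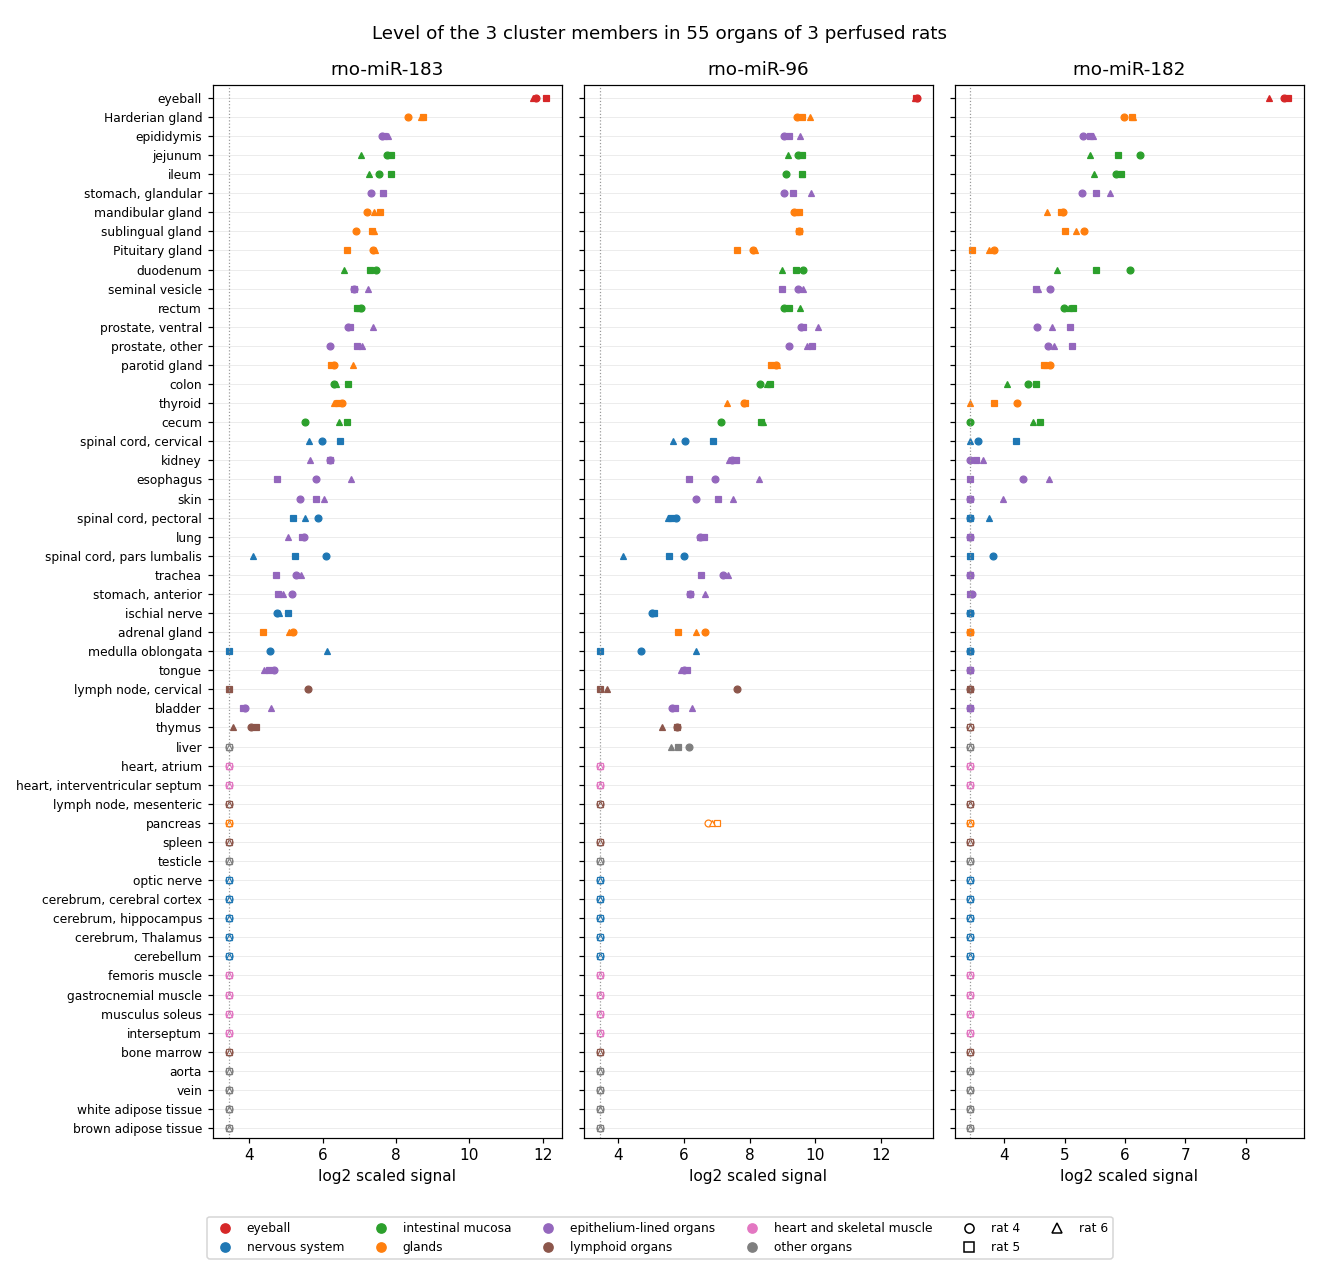
Log2 scaled signal of miR-183, miR-96 and miR-182 (mean of their probes) in 55 organs, 1 marker shape per perfused rat, filled where at least 1 array of the organ detected the member, with the floor as a dotted line. The eyeball stands above every other organ in each panel, and the 20 organs at the foot of the chart below the liver have open markers throughout.

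Values are given as scaled signal, the processed brightness after each array was set to a common 75th percentile, and log2 differences come from limma over 345 miRNAs with adjusted p-values over all of them. Signals below a floor of 10.8 were set to it. Organs at the floor show no spread between rats, and the fit pools the spread over all organs. The SEs and p-values are therefore smaller than the detected organs alone would give, most of all for miR-182. Levels of different members rest on different probes and are not set against each other.

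In the eyeball, miR-183 had scaled signals of 3607, 4359 and 3416 in rats 4, 5 and 6. In the same order miR-96 read 8700, 8557 and 8450. The mean over the 3 probe sequences of miR-182 was 397, 413 and 333, and its brightest probe sequence alone gave 1029, 1074 and 877. The 3 rats lay close together for each member, with a log2 SD of 0.18 for miR-183 and 0.02 for miR-96.

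No other organ overlapped with these values. Over the mean of the other 54 organs, the eyeball was higher by 6.81 log2 units for miR-183 (SE 0.23, limma adjusted p = 1.03e-53), 6.96 for miR-96 (SE 0.28, limma adjusted p = 5.61e-46) and 4.63 for miR-182 (SE 0.12, limma adjusted p = 5.70e-65). In this contrast 32.8% of the 345 miRNAs were called higher. By size of the difference miR-96 stood 4th, miR-183 6th and miR-182 12th of the 345. Values at the floor compress these log2 differences, most of all for miR-182, whose brightest probe alone gave 5.31 (SE 0.19, limma adjusted p = 2.78e-50).

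Against single organs the excess is better read as a fold. For miR-183 the eyeball was from 9.90-fold (over the Harderian gland) to 220-fold (over the bladder) higher than the 30 other organs in which every array detected it, and at least 19.7-fold to at least 808-fold higher than the 21 organs where none did. For miR-96 it was from 9.89-fold (over the ventral prostate) to 257-fold (over the ischial nerve) higher in 32 organs. On the brightest probe, the eyeball excess of miR-182 over 26 organs ran from 5.51-fold (Harderian gland) to 64.5-fold (trachea). Lung, bladder and adrenal gland, detected on every array but with values below the floor, were left out. Their log2 means of 3.48, 3.54 and 3.85 lay below the 3.94 of the trachea, so the excess over them was larger. The bounds set the eyeball mean against the lowest signal that counted as well above background on the dimmer arrays, or the miRNA's own signal where that was higher.

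The eyeball label was borne out by other eye miRNAs. miR-124, a neuronal miRNA also abundant in retina, read 10501, 11502 and 9595, and miR-184, known from cornea and lens, read 10066, 9822 and 13672. All 10 miRNAs of an eye list (neuronal, retinal and lens or pigment epithelium miRNAs) were called higher in the eyeball, where 32.8% of all miRNAs were, with a median difference of 4.85 log2 units beside -0.09 over all miRNAs tested. The list was chosen with earlier results of these data known. The eyeball samples also carried muscle miRNAs, with 5 of 6 on every array and a summed signal of 1031, 2172 and 4332. The heart and skeletal muscle samples had no detected member of the cluster, and the part of muscle in the eyeball values was not tested.

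The optic nerve, which carries the axons of the retina's output neurons but no photoreceptors, had no detected member. Its miR-183 signals were 2.25, -0.25 and -0.49, so the eyeball was at least 317-fold higher. For miR-96 the signals were 4.74, 1.22 and 2.44 and the eyeball was at least 719-fold higher. The fitted differences were 8.44 for miR-183 (SE 0.32, limma adjusted p = 3.00e-48), 9.63 for miR-96 (SE 0.39, limma adjusted p = 3.47e-45) and 5.13 for miR-182 (SE 0.17, limma adjusted p = 1.82e-54), ranks 3, 2 and 8 of 345 in a contrast with 25.2% called higher. These fitted values depend on the floor. The optic nerve of rat 4 held muscle miRNAs at a summed signal of 4990, beside 27.9 and 21.4 in rats 5 and 6, and no member was detected in any of the 3.

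The Harderian gland, a lipid-secreting gland behind the eye, came second in the order of organs for miR-183 and miR-182. miR-183 read 320, 424 and 407 there, and no other organ but the eyeball reached these values in any rat. The brightest probe of miR-182 read 167, 187 and 185, in the range of the jejunum. miR-96 read 699, 779 and 916. These values overlapped with both prostate samples, the sublingual and mandibular glands, small intestine, rectum, glandular stomach, seminal vesicle and epididymis. The eyeball exceeded the Harderian gland by 3.31 log2 units for miR-183 (SE 0.32, limma adjusted p = 4.70e-17), 3.43 for miR-96 (SE 0.39, limma adjusted p = 1.74e-13) and 2.49 for miR-182 (SE 0.17, limma adjusted p = 5.05e-27), with 30.1% of miRNAs called higher in this contrast.

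Because the gland lies beside the eyeball, eye miRNAs were read beside its values. miR-124, miR-9 and miR-211 were not detected in it on any array, and miR-184 read 18.5, 4.65 and 10.5 against 9822 to 13672 in the eyeball. miR-204 read 214, 138 and 133.2 in the gland and 13722, 13027 and 15129 in the eyeball. Muscle miRNAs summed to 3443, 1305 and 113 in the Harderian samples of rats 4, 5 and 6, and all 3 members were lowest in rat 4. The part of muscle in the cluster values was not tested. Against the salivary glands, miR-183 in the Harderian gland was 2.28-fold (mandibular), 2.57-fold (sublingual) and 4.34-fold (parotid) higher. The same ratios for miR-96 were 1.15, 1.09 and 1.82, and those for the mean of the miR-182 probes were 2.30, 1.87 and 2.59.

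Eyeball and Harderian gland of a rat were hybridised on the same slide, which allowed the difference to be read within slides. It was 3.49, 3.36 and 3.07 log2 units for miR-183, 3.64, 3.46 and 3.21 for miR-96, and 2.66, 2.57 and 2.25 for miR-182. The sign was the same in each rat.

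The intestinal mucosae held all 3 members on every array. In the small intestine, miR-183 read 177, 156 and 96.5 in duodenum, 216.6, 234 and 132.4 in jejunum, and 186, 231 and 155 in ileum. miR-96 read 796, 678 and 507, 715, 766 and 574, and 556, 768 and 767 in the same 3 segments, and the brightest miR-182 probe read 180.9, 130 and 88.4, 207, 172 and 115, and 161, 166 and 120. The 3 segments overlapped with each other for every member. Over the other 49 organs the 6 mucosae were higher by 2.00 for miR-183 (SE 0.10, limma adjusted p = 3.87e-39), 3.09 for miR-96 (SE 0.12, limma adjusted p = 4.81e-48) and 1.21 for miR-182 (SE 0.05, limma adjusted p = 9.19e-45), where 33.9% of miRNAs were called higher.

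The large intestine had less of each member. miR-183 read 45.9, 102 and 86.9 in cecum, 80.0, 103 and 81.7 in colon, and 132.1, 123 and 126 in rectum, so the rectum lay above the other segments in every rat. Large minus small intestine was -0.86 for miR-183 (SE 0.18, limma adjusted p = 3.46e-05), -0.83 for miR-96 (SE 0.23, limma adjusted p = 0.00133) and -1.18 for miR-182 (SE 0.10, limma adjusted p = 4.80e-21). In this contrast 34.5% of miRNAs were called lower. The calls for miR-183 and miR-96 were lost under each of 3 other normalizations, with values from -0.23 to -0.44, and only that for miR-182 held.

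The cecum of rat 4 was the low array of its organ in all 3 members (miR-96 140, beside 327 and 342). It was also low in miRNAs of the intestinal epithelium, with a summed signal of 4780 for miR-192, miR-194 and miR-215 beside 13694 and 14756, and high in miRNAs of blood cells, with 5103 beside 2205 and 2369. The part of these in the cluster values was not tested.

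The 2 parts of the stomach differed. The glandular stomach had miR-183 at 160, 202 and 201, while the anterior stomach, which has a stratified squamous lining in rats, had 35.5, 27.3 and 30.0. miR-96 read 525, 634 and 937 against 72.6, 73.5 and 99.5, and the brightest miR-182 probe 102, 126 and 140.0 against 29.4, 23.4 and 27.6. The groups did not overlap for any member. The summed signal of the 5 epithelial miR-200 miRNAs also differed, with 15057, 17327 and 23252 in the glandular and 688, 642 and 803 in the anterior part, and its part in the difference was not tested.

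Other stratified or lining epithelia were lower, and the esophagus varied most. The esophagus had miR-183 at 55.9, 26.8 and 110, and miR-96 at 122.4, 71.9 and 312, with rat 5 lowest and rat 6 highest. Its miR-203 and miR-205, markers of stratified epithelium, followed the same order with a summed signal of 5566, 2368 and 9123. Muscle miRNAs ran the other way, with 28269, 32087 and 11836. The part of either in the cluster values was not tested. Skin read 41.4, 56.1 and 66.2 for miR-183, tongue 25.4, 23.4 and 21.3, and bladder 14.7, 14.3 and 24.0.

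The airway samples were low. Trachea had miR-183 at 38.9, 26.6 and 42.4 and lung at 45.3, 43.6 and 33.5, and the ranges overlapped. Trachea minus lung was -0.20 for miR-183 (SE 0.32, limma adjusted p = 1) and 0.50 for miR-96 (SE 0.39, limma adjusted p = 0.569), neither past the threshold, where 11.6% of miRNAs were called higher in trachea. Scaled to the 75th percentile over all miRNAs, miR-183 was called lower in trachea (-0.91, limma adjusted p = 0.017), as were 115 of 345 miRNAs. The brightest miR-182 probe gave 0.46 (SE 0.27, limma adjusted p = 0.263). With single rats left out, trachea minus lung ran from -0.47 to 0.06 for miR-183 and from 0.32 to 0.78 for miR-96.

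The salivary glands carried the cluster at levels near those of the intestine. miR-183 read 148, 188 and 168 in the mandibular gland and 119, 163 and 168 in the sublingual gland, and was lower in the parotid gland at 80.0, 75.2 and 113. miR-96 was again lowest in the parotid gland, with 649, 734 and 688, 727, 726 and 728, and 448.6, 404 and 459 in the mandibular, sublingual and parotid glands. Over the other 52 organs the 3 glands were higher by 1.93 for miR-183 (SE 0.13, limma adjusted p = 2.90e-26), 3.18 for miR-96 (SE 0.16, limma adjusted p = 3.79e-36) and 0.94 for miR-182 (SE 0.07, limma adjusted p = 3.88e-24), where 30.4% of miRNAs were called higher. For miR-182 this difference rests on values near the floor. The brightest probe gave 1.75 (SE 0.11, limma adjusted p = 1.63e-28), and a floor 4 times as high turned the sign (-0.094).

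In the male reproductive tract the ducts and accessory glands carried the cluster and the testicle did not. The epididymis had miR-183 at 196, 202.8 and 221, the next organ after the Harderian gland, and the ventral prostate had miR-96 at 752, 798 and 1085, second after the eyeball. The remaining prostate had miR-96 at 587, 955 and 854 and the seminal vesicle at 713, 508 and 789, so these ranges overlapped with that of the ventral prostate. No array of the testicle detected a member. Relative to it, miR-183 in the epididymis was at least 7.78-fold higher and miR-96 in the ventral prostate at least 32.7-fold higher.

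Of pituitary, thyroid and adrenal gland, the pituitary had the highest mean of miR-183 and miR-96. miR-183 read 164, 101 and 172 there, beside 91.5, 84.9 and 79.7 in thyroid and 36.3, 20.7 and 33.7 in adrenal gland. miR-96 read 277, 197 and 289 in the pituitary, 226, 235 and 160 in thyroid, and 101, 56.4 and 82.3 in adrenal gland. The pituitary and thyroid overlapped for miR-96 and not for miR-183. For the brightest miR-182 probe they also overlapped, with 50.9, 39.8 and 26.8 in thyroid and 39.0, 31.8 and 39.6 in the pituitary.

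Over the other 54 organs the pituitary was higher by 1.99 for miR-183 (SE 0.23, limma adjusted p = 8.00e-14) and 1.77 for miR-96 (SE 0.28, limma adjusted p = 1.21e-08), with 35.4% of miRNAs called higher. With normexp background correction the value for miR-183 was 0.60 and was not called. In this contrast 150 of the 345 miRNAs were called lower. For miR-182 the sign depended on how its probes were summarised. The mean of the 3 probes gave -0.35 (SE 0.12, limma adjusted p = 0.00618), a call that was lost without rat 5 or without the arrays with 2 rat numbers (-0.24 in both), and the brightest probe gave 0.47 (SE 0.19, limma adjusted p = 0.0215). All 5 miRNAs of an endocrine list were called higher in the pituitary, with a median of 6.97 beside -0.11 over all miRNAs tested. That list, too, was chosen with earlier results of these data known. The thalamus had no detected member, so that miR-183 was at least 15.0-fold and miR-96 at least 26.0-fold higher in the pituitary.

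The pancreas had no member that counted as detected, although its miR-96 signals of 107, 129 and 116 gave it place 23 in the order of organs. Its arrays were dim, with 75th percentiles of 120.7, 90.5 and 68.0 before scaling, and scaling raised all their signals. The lowest signals that counted as detected on them were 115, 224 and 273, above these values, so a level below those could not be detected and absence is not shown.

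Within the nervous system the cluster was detected only in the spinal cord, the medulla oblongata and the ischial nerve, among the 10 regions sampled. The 3 cord levels had miR-183 at 62.7, 89.5 and 49.1 (cervical), 58.8, 36.7 and 46.1 (pectoral) and 67.6, 38.0 and 17.1 (pars lumbalis), and the ranges overlapped. miR-96 read 65.0, 118 and 51.5, 54.6, 48.5 and 46.2, and 64.0, 46.6 and 17.8. The ischial nerve, a mixed peripheral nerve that holds axons of sensory neurons, had miR-183 at 27.1, 33.6 and 28.0, miR-96 at 32.7, 34.1 and 33.2 and the brightest miR-182 probe at 16.6, 18.5 and 14.7.

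Cerebral cortex, hippocampus, thalamus and cerebellum were at background. In the cerebral cortex miR-183 read -1.59, 1.22 and 0.29, and the cervical, pectoral and lumbar cord were at least 8.17-fold, 5.82-fold and 4.43-fold higher. For miR-96 the bounds were 9.21, 6.23 and 4.71. The arrays of the medulla oblongata were split, with miR-183 at 23.5 and 69.9 in rats 4 and 6 and at 1.92, not detected, in rat 5. The nervous system as a group of 10 differed from the 44 other organs apart from the eyeball by -0.89 log2 units for miR-183 (SE 0.08, limma adjusted p = 5.69e-20), -2.07 for miR-96 (SE 0.10, limma adjusted p = 9.37e-41) and -0.56 for miR-182 (SE 0.04, limma adjusted p = 8.68e-25), where 55.9% of miRNAs were called lower.

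In the 6 heart and skeletal muscle samples no array detected any member. The group mean was below that of the other 49 organs by -1.98 for miR-183 (SE 0.10, limma adjusted p = 1.76e-38), -3.13 for miR-96 (SE 0.12, limma adjusted p = 2.22e-48) and -0.66 for miR-182 (SE 0.05, limma adjusted p = 1.67e-23). With normexp the value for miR-182 was -0.25 and was not called. Here 72.5% of all miRNAs were called lower, and all muscle values sat at the floor, so these differences are sizes of the other organs' levels above it.

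In liver and thymus miR-96 was detected on every array, whereas miR-183 was detected on no liver array and on 2 thymus arrays. The liver read 71.3, 56.2 and 49.3 for miR-96 and 8.05, 6.49 and 3.26, not detected, for miR-183. The lowest detected signals on the liver arrays were 39.2, 34.6 and 34.1, so miR-183 below those levels could not be detected and absence is not shown. The thymus read 55.8, 55.7 and 40.1 for miR-96 and 16.5, 18.1 and 11.7 for miR-183, the last not detected. No liver or thymus array detected miR-182, which in this dim range does not tell its absence from a level below background. Thymus minus mesenteric lymph node was 2.21 for miR-96 (SE 0.39, limma adjusted p = 8.20e-07), at least 5.29-fold, and 0.49 for miR-183 (SE 0.32, limma adjusted p = 0.297), where 23.2% of miRNAs were called higher. Both depended on the setting, since a floor 4 times as high gave 0.24, not called, for miR-96. miR-183 was called with normexp (1.07) and with a floor 4 times lower (2.49). The epithelial miR-200 miRNAs summed to 727, 705 and 545 in thymus and 9.95, 11.6 and 5.88 in the mesenteric node. Their part in these differences was not tested.

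The cervical lymph node rested on 1 rat. Rat 4 had miR-183 at 48.2 and miR-96 at 199, whereas rats 5 and 6 read 2.27 and 1.06 for miR-183 and 10.5 and 12.6 for miR-96. On that array the summed signal of miR-200a, miR-200b, miR-200c, miR-141 and miR-429, which mark epithelia, was 3646 beside 14.7 and 16.7, and miR-375 was 292. The part of other tissue in this value was not tested. Without this array no call for the members changed in any contrast.

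Taking each organ against the mean of the other 54, miR-183 was called higher in 22 organs and lower in 26, miR-96 higher in 23 and lower in 25, and miR-182 higher in 15 and lower in 37. Over all miRNAs and organs 23.4% of such contrasts were called higher and 50.6% lower. The numbers for miR-182 depended on the processing, with 19 higher and 30 lower on its brightest probe, 15 lower with normexp, and 5 higher and 0 lower with a floor 4 times as high. In the processing used here the 3 members were higher together in 15 organs. miR-183 and miR-96 were higher together in 21 organs and apart in 3, the cervical cord for miR-183 and the trachea and pancreas for miR-96. The pancreas is counted in these numbers for miR-96 although none of its arrays detected it, so that call rests on a signal raised by scaling. Each member differed among the organs by limma's F test (F = 67.3, 84.2 and 72.3 for miR-183, miR-96 and miR-182, limma adjusted p = 6.02e-65, 4.35e-70 and 1.38e-66), as did 99.7% of miRNAs tested.

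Few neighbours in the order of organs were separated. Of the 54 neighbouring pairs, the 3 rats of one overlapped with those of the next in 51 for miR-183, 49 for miR-96 and 53 for miR-182. The median log2 SD between rats, over organs with the member on every array, was 0.31 for miR-183 and 0.27 for miR-96. Many of these pairs are organs at the floor. Among neighbours that detected the member on every array, 26 of 28 pairs overlapped for miR-183, 27 of 31 for miR-96 and 21 of 22 for miR-182, leaving out pairs with all values at the floor.

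The members agreed closely across organs. Over 55 organ means on the log2 scale, Pearson's r was 0.95 for miR-183 and miR-96 (Spearman 0.94), 0.89 for miR-183 and miR-182 (0.93) and 0.83 for miR-96 and miR-182 (0.88). These are descriptions across organs of the same 3 rats, and all 3 share the scaling of each array. The probe sequences were not used here, so how far a probe of one member also reads another, such as miR-183 and miR-182 with 18 of 22 bases alike, was not tested. Of the 59340 pairs of tested miRNAs, 0.539%, 1.25% and 2.20% had an r at or above these, and the median pair had -0.01. Without the eyeball r was 0.94, 0.86 and 0.83, and with the brightest miR-182 probe it was 0.97 against miR-183 and 0.93 against miR-96.

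Within the detected range the members also agreed. In the 31 organs with miR-183 and miR-96 on every array, r was 0.92 (0.90 without the eyeball). The deviations of single arrays from their organ mean correlated at 0.86 over 93 arrays for that pair, at 0.66 over 90 arrays for miR-183 and miR-182, and at 0.70 for miR-96 and miR-182. Members of an array share its scaling and RNA, and over the same arrays the median pair of miRNAs detected on all of them had 0.14 in the first case and 0.16 in the others, with 0.552%, 3.67% and 2.56% of pairs at or above the members' values. Of the 10 organs with the highest levels, miR-183 shared 7 with miR-96 and 8 with miR-182.

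**Figure D2:**
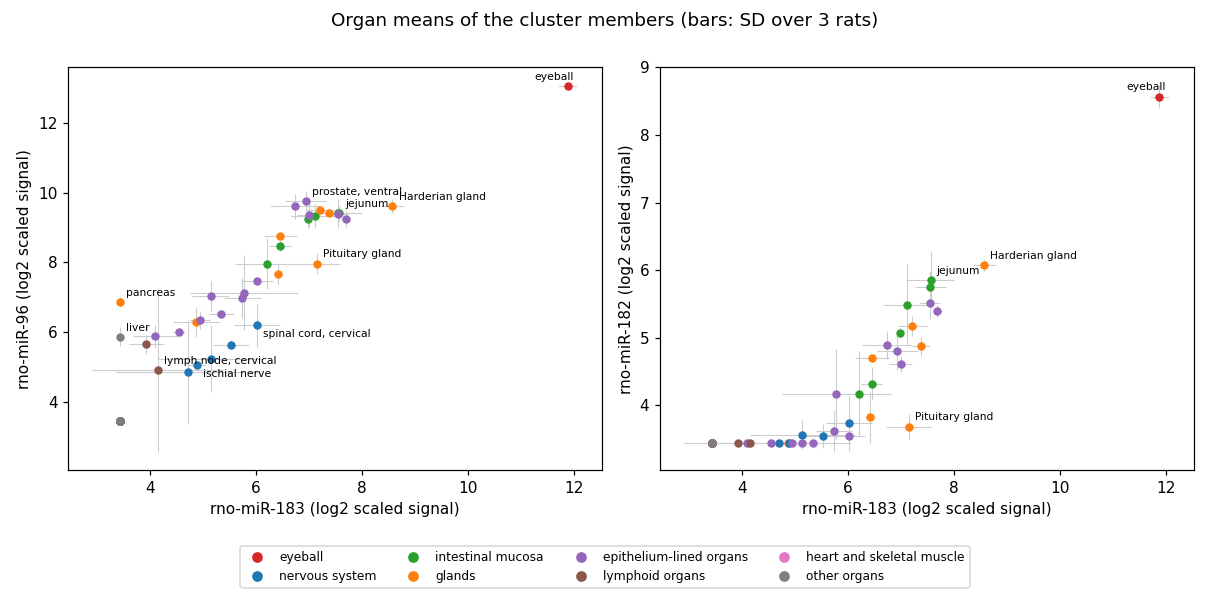
Organ means over 3 rats on log2 axes of scaled signal, miR-96 (left) and miR-182 (right) against miR-183, with bars for the SD. The eyeball lies at the top right of both panels, and the dimmest miR-182 values line up at the floor.

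The ratio of miR-96 to miR-183 on the same array, in contrast, was lower in the spinal cord and ischial nerve than in the other organs that could be read, the eyeball among them. Scaling cancels in this ratio, and only its differences between organs can be read. On the log2 scale its mean was 0.17 in the cervical, 0.10 in the pectoral and 0.09 in the lumbar cord and 0.18 in the ischial nerve, and the 12 arrays ran from -0.11 to 0.40. In the other 27 organs with both miRNAs on every array the 81 arrays ran from 0.75 to 3.00 and did not overlap with these.

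The lowest of those 27 organs were the pituitary at 0.82, the Harderian gland at 1.06, the eyeball at 1.18 and the lung at 1.19. The highest were the ventral prostate at 2.82 and the other prostate at 2.88. Adrenal gland and tongue, whose miR-183 signals were no higher than those of the cervical cord, gave 1.40 and 1.45. The part of a low signal in the ratio was not tested. The 2 medulla arrays that detected both miRNAs, of rats 4 and 6, gave 0.15 and 0.25, in the cord's range. The groups were drawn after the values were seen, so no test was made. The separation held with summed probe signal, in the authors' table and for each of the 4 pairs of single probes. With normexp background correction 3 of the 81 arrays fell at or below the highest value of cord and nerve.

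**Figure D3:**
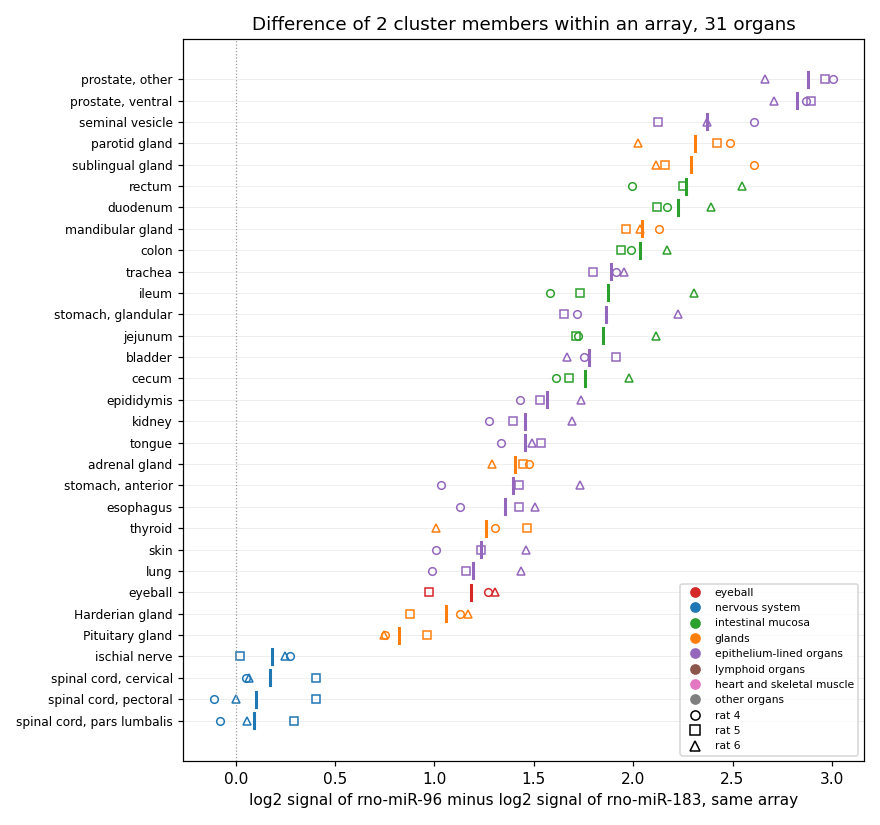
Log2 miR-96 signal minus log2 miR-183 signal on the same array in the 31 organs with both on every array, 1 marker shape per rat and a vertical bar for the mean. The 3 cord levels and the ischial nerve lie between -0.11 and 0.40, below all other organs shown.

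The ratio of miR-183 to the brightest miR-182 probe set other organs apart. It was 1.81, 2.02 and 1.96 on the log2 scale in the eyeball and 2.08, 1.67 and 2.12 in the pituitary. In the other 25 organs where it could be read, single arrays ran from -0.03 to 1.57, with means of 0.12 (duodenum) to 1.20 (trachea) and 1.09 in the Harderian gland. Eyeball and pituitary thus had more miR-183 per miR-182 than these organs, again a description of values already seen. Lung, adrenal gland and bladder, each with values below the floor on this probe, were left out. Their means were 1.86, 1.02 and 0.56, so the lung lay in the range of the eyeball.

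Outside the cluster, the miRNAs whose organ pattern was most like it were miR-200b, miR-429, miR-200a, miR-200c_v15.0 (the name on the array) and miR-141, with a mean r to the 3 members of 0.77, 0.77, 0.75, 0.75 and 0.74 over 55 organ means. These form the miR-200 family, which is typical of epithelial cells. In the intestinal mucosae 7 of 8 miRNAs of an epithelial list were called higher, where 33.9% of all miRNAs were, and miR-205 lower, with a median of 5.19 beside -0.16 over all miRNAs tested. In the salivary glands 7 of 8 were called higher, where 30.4% of all miRNAs were, and miR-203 lower, with a median of 3.97 beside -0.14. In the eyeball 4 of the 8 were called higher, where 32.8% of all miRNAs were, 2 lower and 2 neither, with a median of 0.70 beside -0.09.

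Counted next were miR-200a, miR-200b, miR-200c, miR-141 and miR-429, with miR-200c in place of miR-200c_v15.0. Of the 30 organs with the whole cluster, 24 had all 5 miR-200 miRNAs on every array, and 4 had none on any array. Those 4 were the cervical and pectoral cord, the ischial nerve and the adrenal gland. Of the 20 organs without the cluster, 13 had none of the 5. The pancreas, where the dim arrays limit detection of the cluster, had all 5. The eyeball, highest for the cluster, held places 22 to 27 for the 5 most similar miRNAs, and its summed miR-200 signal of 1097, 1213 and 908 was below the 6136, 6824 and 7707 of the Harderian gland.

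**Figure D4:**
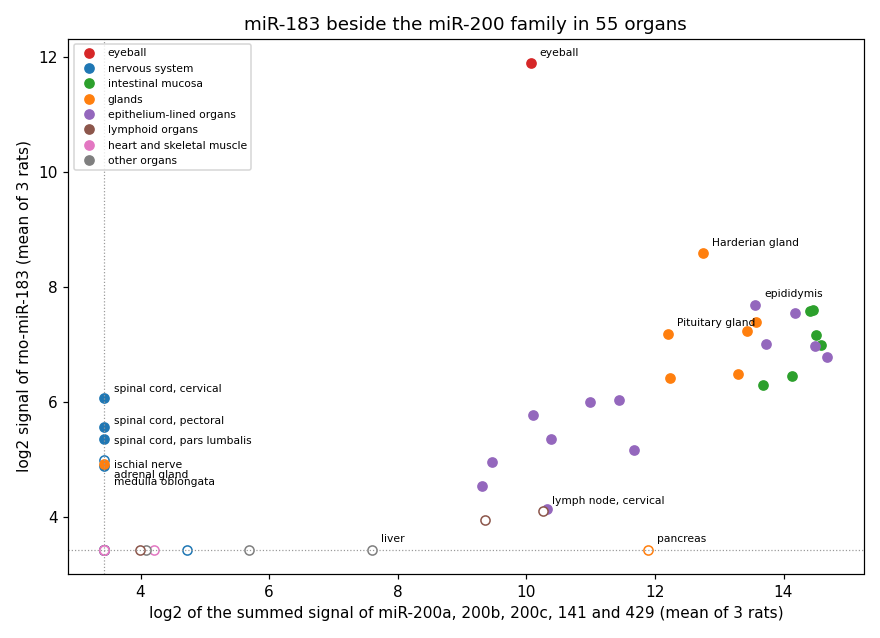
Log2 mean signal of miR-183 against log2 of the summed signal of 5 miR-200 family miRNAs, 1 point per organ (mean of 3 rats), filled where all 3 arrays detected miR-183, with floors as dotted lines. The eyeball lies highest at a middling miR-200 level, while the cord, ischial nerve and adrenal gland show miR-183 at the miR-200 floor.

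The other strands of the hairpins were faint. miR-183* was detected on 16 of the 180 arrays, from eyeball, Harderian gland, ileum, jejunum, rectum, glandular stomach and sublingual gland, and read 45.5, 48.0 and 44.2 in the eyeball. miR-96* was detected on 2 arrays, both of the eyeball, at values of 10.6, 9.70 and 8.45 in rats 4, 5 and 6. miR-3553, from the opposite strand, was detected on 0 of 180 arrays and reached at most 2.12. All of the organs with miR-183* were among the 30 with the whole cluster.

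The probes of a member differed in brightness and not in the leading organ. Both probe sequences of miR-183 (eyeball means 2726 and 4862) and of miR-96 (8380 and 8758) placed the eyeball first of 55, as did all 3 of miR-182 (11.3, 139 and 993). The dimmer miR-182 probes were detected on 1 and 17 of 180 arrays and the brightest on 101. The mean over probes lies below the brightest probe throughout, and outside the brightest organs it falls to the floor.

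No difference between perfused and not perfused rats was called for miR-183 or miR-96, and miR-182 did not pass the filter for this comparison and was not tested. In lung, miR-183 read 45.3, 43.6 and 33.5 in perfused and 31.2, 26.2 and 36.3 in not perfused rats, a difference of 0.39 (SE 0.12, limma adjusted p = 0.13), and miR-96 differed by 0.54 (SE 0.15, limma adjusted p = 0.109). In kidney the differences were 0.04 for miR-183 and 0.12 for miR-96, and miR-96 in liver differed by 0.32 (SE 0.15, limma adjusted p = 0.787). Of 191 miRNAs tested in each of 5 organs, 0.0% were called, and 11, 4, 12, 4 and 3 passed an unadjusted p under 0.05 in liver, kidney, lung, atrium and septum. In lung a call depended on single arrays, since miR-183 passed without rat 6 (0.52) and miR-96 without rat 3 (0.69). With single rats left out, miR-96 in liver ran from 0.11 to 0.52. In kidney miR-183 then ran from -0.05 to 0.22 and miR-96 from 0.03 to 0.23.

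Arrays detected between 86 and 244 miRNAs (median 161.5). Slides and scan days each held many organs, and the eyeball exceeded the other arrays of its slide by 6.69, 7.29 and 6.93 log2 units for miR-183 and by 7.17, 7.92 and 7.82 for miR-96. Within each of the 3 scan days the contrasts of the eyeball, the intestinal mucosae, the salivary glands, the nervous system and muscle with the other organs, and large minus small intestine, had the signs given above for every member. Large minus small intestine for miR-183 was -1.29, -0.91 and -0.38. The pituitary was on 2 of the scan days, with the same signs, and the eyeball was not compared with the optic nerve within days. The 8 arrays whose labels carry 2 rat numbers include the pituitary, medulla and cord arrays of rat 5.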

How the data were processed

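Total RNA (miRNeasy) was labelled with Cy3 and hybridised to Agilent rat miRNA arrays, per the labels. The deposited scanner files hold spot intensity on a linear scale from Agilent Feature Extraction (version 10.7.3 in the submitters' processing notes), background-subtracted by that software. The authors' deposited value table holds intensity multiplied by 1 factor per array. It was used as an alternative. Groups came from the labels. The titles number 3 rats for every organ, but for 8 organs the source name of the array titled rat 5 says rat 6. The sample list of the study follows the titles, which were used. By the other label those organs would come from 2 animals.

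Spots marked as outliers were left out. Spots of a probe were averaged, then probes of a miRNA. Each array was scaled so that its 75th percentile, taken over 37 miRNAs that every one of the 180 arrays detected, was the same, floored at 10.8 and taken to log2. For the scaling and the filter a miRNA counted as detected where over 50% of all its usable spots were well above background, for the members where 1 probe sequence met this. The 345 miRNAs detected on all 3 arrays of an organ were tested with limma 3.58.1 (R 4.3.3), 1 term per organ over 165 arrays, two-sided, with Benjamini-Hochberg adjustment at 0.05. On simulated data for the eyeball contrast, 63.5%, 96.1% and 99.4% of planted changes of 0.5, 1 and 2 log2 units were recovered. Array number, 3 per organ, limits the precision.

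The members and lists were chosen with earlier results of these data known. Named miRNAs were the members, other strands of their hairpins, the 5 miRNAs of most similar pattern and listed markers. By their titles the same rats gave every organ, so samples can be paired by animal; the fits reported have no rat term, and a fit with the rat as a block was an alternative. Deviations from organ means correlated at 0.05 within a rat and -0.02 between rats. No 2 arrays held identical values. Tested alternatives were other scalings, normexp background correction (on median signals), floors, filters, probe summaries, blocks and left-out arrays.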

Additional observations from a re-analysis of the deposited data

How the results depend on the processing

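Leaving aside those added after seeing the values, the alternatives gave the following: 920 recomputed values kept their direction and side of the threshold (counts within 1.5 times), 5 became called, 13 lost the call, 2 reversed and 16 moved. Of the values under added alternatives, 55 kept theirs and 1 reversed. The calls of the eyeball against the other organs, the optic nerve and the Harderian gland, and of the 6 intestinal mucosae against the other organs, held for all members under each alternative run. The paired fit, with the rat as a replicate block, changed no call (eyeball miR-183 6.81, as without it). Depth-like limits come from signal over background: most miR-182 values and all values of muscle, cerebral cortex, hippocampus, thalamus and cerebellum lie at the floor.

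Large minus small intestine lost its call for miR-183 (-0.26, -0.23 and -0.30) and miR-96 (-0.23, -0.44 and -0.27) with the 75th percentile over all miRNAs, quantile normalization and the authors' table. The first of these called trachea minus lung for miR-183 (-0.91). With normexp, the pituitary lost its call for miR-183 (0.60) and miR-182 (-0.52), thymus minus mesenteric lymph node passed for miR-183 (1.07), muscle was not called for miR-182 (-0.25), and miR-182 was lower in 15 organs. A floor 4 times as high gave -0.090 for miR-182 in the pituitary, reversed it in the salivary glands (-0.094), gave 0.24 for miR-96 in thymus, and left miR-182 higher in 5 organs and lower in 0. A floor 4 times lower reversed miR-182 in the pituitary (0.70) and called miR-183 in thymus (2.49). The pituitary value of miR-182 was -0.24, no longer called, without the 8 arrays with 2 rat numbers, -0.42 to -0.24 when each rat was left out (call lost without rat 5), and 0.47 on its brightest probe, an alternative chosen after seeing the data. Perfused minus not perfused lung ran from 0.27 to 0.52 for miR-183 and 0.43 to 0.69 for miR-96 when single rats were left out. The cause of these changes was not tested.

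For agreement, miR-183 and miR-96 gave 0.99 on linear values, 0.92 where both were detected and 0.96 in the authors' table. miR-183 and miR-182 gave 0.97, 0.94 and 0.87, with 0.93 by Spearman and 0.86 without the eyeball. miR-96 and miR-182 gave 0.98, 0.91 and 0.81, with 0.88 by Spearman. The authors' table shared 6 of the 10 highest organs for miR-183.

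Scaling also moved calls over all miRNAs. Of 345, the eyeball contrast called 113 higher and 113 lower, against 53 and 177 with the percentile over all miRNAs, and 44 and 10 with normexp. Large minus small intestine called 20 higher and 119 lower, against 59 and 42. The same scaling moved the share of higher calls by over 10 percentage points in 9 of 11 contrasts, for example from 73.8% to 38.7% over the Harderian gland. The filter of detection on 50% of the arrays left no value for miR-182.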
